A study of Mus musculus with 22 samples.

Results

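Small Pre-B cells are the resting precursors that follow the dividing, pre-B cell receptor positive stage of B cell development in bone marrow. They rearrange the immunoglobulin light chain, and those that succeed display IgM, become immature B cells and start to express the genes of antigen presentation and of homing to lymphoid organs. The genotype comparison at this stage rested on 6 of the 22 libraries of the series, 3 from tet-LIN28B mice and 3 from littermate controls, each labelled as a biological replicate, and took in every gene of the small Pre-B table. Of its 26095 genes, 14664 had 3 or more libraries with a normalized count of 10 or above and entered the test.

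The tet-LIN28B mice carried 1 copy of a doxycycline-inducible, Flag-tagged human LIN28B cDNA in the Col1a locus (Col1a tetO-LIN28B) together with the transactivator Rosa26 rtTA*m2. The controls were littermates heterozygous for Rosa26 rtTA*m2 alone, so that mice of both genotypes had the transactivator. Both genotypes ate chow with 200 mg/kg doxycycline during the 10 days before analysis. They were adults, their exact ages are not given per library, and the transactivator is made from a locus that is active in most tissues, so induction was not specific to B cells. Bone marrow was depleted of CD3, TER119 and GR1 positive cells, and CD93+ IgM- cKIT- cells with low forward scatter were sorted. LIN28B binds RNA, is normally made in fetal and newborn progenitors, prevents let-7 microRNAs from maturing and attaches to many mRNAs. The question was which transcripts differ in small Pre-B cells when LIN28B is switched on in the adult.

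The libraries held 32004733 to 50991949 reads on genes. The mouse Lin28b gene was at 0, 0 and 0 in controls and at 230.2, 81.9 and 124 in tet-LIN28B cells. This was at least 49.3-fold higher against a floor of 3 reads per control library, and since the transgene is a human cDNA this is not a measure of the protein. Col1a1, the collagen gene whose locus carries the transgene (chr11:94936224-94953042 in GRCm38), was at 0, 1.08 and 0.939 in controls and at 14.1, 18.7 and 13.6 in tet-LIN28B cells. Neither gene could be tested with a tet-LIN28B library left out, since both passed the filter on low values through these libraries alone. The defining genes of the stage were present in every library, with Cd79a at 113384 or more and Rag1 at 8959.9 or more, while Kit, which the gate excludes, was at 42.8, 50.8 and 56.4 in controls and 33.8, 21.8 and 2.72 in tet-LIN28B cells (adjusted p = 0.119). The Y-linked gene Ddx3y was expressed in all 6 libraries (3169 to 5179) and Xist stayed at or below 7.44. Of the T and NK cell markers, 6 of 25, among them Cd3e and Trbc1, were at 0 in all libraries. Control replicate 2 stood apart by transcripts that mark granulocyte precursors, with Mpo at 1162 and Elane at 223 normalized counts against at most 9.96 and 25.3 in the other libraries. The summed level of the 30 granulocyte and monocyte markers was 10372 to 13314 in controls and 13762 to 14906 in tet-LIN28B cells. Without control replicate 2, 691 genes rose and 613 fell.

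In tet-LIN28B small Pre-B cells 1076 genes rose and 1031 fell at an adjusted p under 0.05 (limma on log2(normalized count + 1), Benjamini-Hochberg over all genes tested), which is 7.34% and 7.03% of the genes tested. The typical call was small. The median log2 fold change was 0.42 among genes that rose and -0.60 among those that fell, and 162 and 277 genes changed by at least 1 on the log2 scale. Control and tet-LIN28B libraries were fully separated for 2102 of the 2107 called genes, and for 33.9% of all genes tested. After rescaling libraries to equal totals the split was 829 higher and 1227 lower. The number of calls was 1024 without control replicate 1, 1304 without control replicate 2, 1228 without control replicate 3 and 1248 without tet-LIN28B replicate 1, and 417 of the genes that rose and 421 of those that fell passed in each of the 6 fits that leave out a library. Of 1776 genes in the lists used below, 418 were called, and 217, 259 and 268 without control replicates 1, 2 and 3 and 259, 378 and 407 without tet-LIN28B replicates 1, 2 and 3. Of the called genes, 50, among them Lin28b, Col1a1, Lrrc32, Cysltr1 and Tcf7, had no library at 10 or above in 1 genotype and so entered the test only through the other. They had to differ, so those named are described by their values alone, but they remain in the counts. A gene named below as having risen or fallen with no further remark kept its call in each of these fits. The p-values set the genotype difference against the spread between libraries of the same genotype. The labels give the 6 libraries as biological replicates.

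Fold changes followed transcript length. Taking the longest annotated transcript of each gene, the median length was 2921 bases over all genes tested, 2292 among genes that rose and 4231 among genes that fell. The median log2 fold change went from 0.155 in the decile of genes with the shortest transcripts to -0.107 in the decile with the longest. In the shortest decile 7.61% rose and 1.99% fell, and in the longest 3.7% rose and 13.2% fell. The trend was unequal between libraries. The difference between the longest and shortest decile, as the median deviation from the mean of all libraries, was 0.217, -0.00352 and 0.123 in control replicates 1 to 3 and -0.119, 0.00186 and -0.304 in tet-LIN28B replicates 1 to 3 on the log2 scale, so that it was near 0 in the second library of each genotype. When the log values of each library were centred within 20 bins of transcript length, 937 genes (6.39%) rose and 871 (5.94%) fell, and 766 and 789 of the original calls remained. For most of the gene groups below, the numbers higher and lower are given again after this centring and, as ranges, with 1 library left out. The part of length in each result was not tested further.

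**Figure D1:**
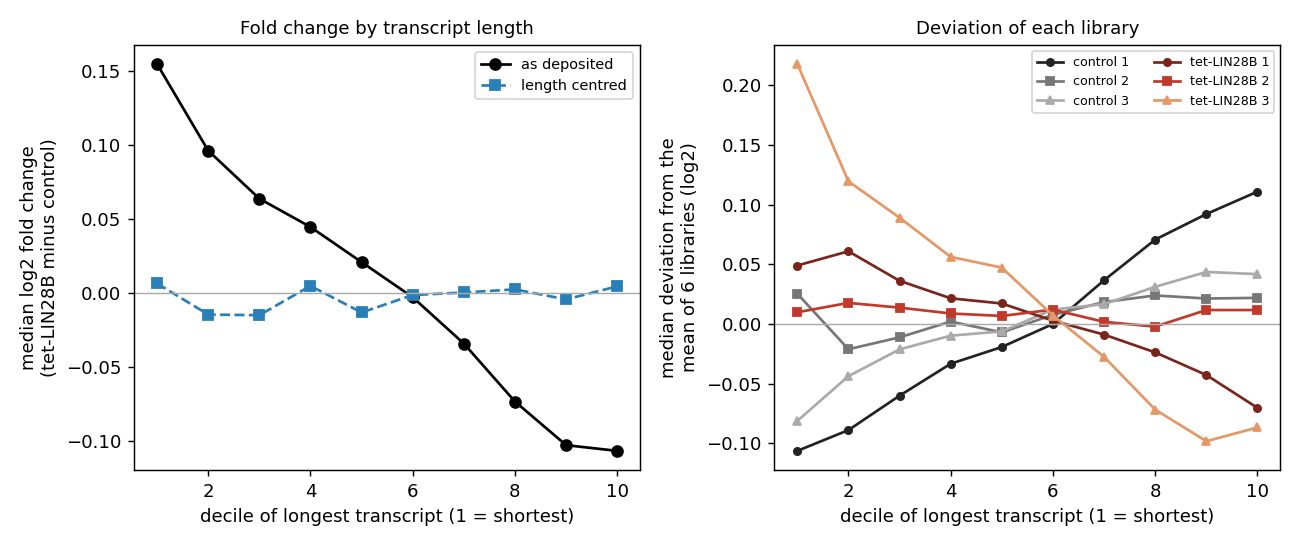
Left: median log2 fold change (tet-LIN28B minus control) in each decile of genes by longest transcript, from the shortest to the longest, before and after centring on length. Right: median deviation of each of the 6 libraries from the mean of all libraries on the log2 scale, in the same deciles. The fold change falls from 0.155 to -0.107, with the steepest opposite trends in control replicate 1 and tet-LIN28B replicate 3.

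The genes of MHC class II antigen presentation rose together. Of 18 members tested, 12 rose and 1 fell, with a median log2 fold change of 0.81 against -0.00241 for all genes, and 12 also rose without control replicate 2. The count of 12 was the same after centring on length and in each fit that leaves out a library. Dendritic cells make class II molecules too. The 14 dendritic cell markers summed to 2036 to 2541 normalized counts in controls and 2559 to 2789 in tet-LIN28B cells, most of it from Ptprs and Cox6a2. Of the 8 tested, 3 were called higher (Flt3, Ptprs and Pacsin1, the last through the tet-LIN28B libraries alone) and 1 lower (Ccr9), and with any 1 library left out 0 to 1 and 0 to 1. Siglech, Itgax, Cd209a, Batf3 and Klra17 were under 10 in every library, Klk1 was at 0 in all, and Xcr1 was at 11.2, 14.1 and 19.7 in controls and 19.7, 15.6 and 38.9 in tet-LIN28B cells. Their part in the result was not tested. In bulk libraries more cells of a kind and more RNA per cell cannot be told apart, so the counts do not say whether all cells or some of them were higher. Class II molecules are built from an alpha and a beta chain, loaded in the lysosome with the help of an invariant chain, and switched on by the coactivator CIITA, which acts through factors bound at the promoter.

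The promoters of the class II genes share a short arrangement that these factors recognise, and it is shown here because several members of the group carry it. The following are 60 bases of the coding strand upstream of the start of each, as given by RefSeq for GRCm38.p6. Each stretch was cut so that ATTGG has the same place in it, and it ends some way before the start. Capitals mark the Y box core ATTGG and, where present, the sequence AACNGATG of the X box.
H2-Aa (chr17:34287857-34287916, minus strand): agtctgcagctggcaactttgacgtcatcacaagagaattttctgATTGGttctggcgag
H2-Eb1 (chr17:34305763-34305822, plus strand): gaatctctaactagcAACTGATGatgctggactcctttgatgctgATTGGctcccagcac
H2-DMb1 (chr17:34153085-34153144, plus strand): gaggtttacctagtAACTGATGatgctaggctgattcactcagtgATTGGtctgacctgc
H2-DMb2 (chr17:34145114-34145173, plus strand): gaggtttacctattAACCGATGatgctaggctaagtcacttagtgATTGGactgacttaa
H2-Oa (chr17:34092291-34092350, plus strand): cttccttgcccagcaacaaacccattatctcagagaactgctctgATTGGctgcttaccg
H2-Ob (chr17:34238803-34238862, plus strand): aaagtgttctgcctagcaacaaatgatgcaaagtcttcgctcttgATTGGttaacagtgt
The Y box core began 43 to 90 bases before the start. In H2-Eb1 it followed AACNGATG after 22 bases and in H2-DMb1 and H2-DMb2 after 23. Of 12 promoters of class II genes that rose, 8 held ATTGG on either strand and 3 held AACNGATG. No promoter was available for H2-Ab1, Cd74 and Ciita, and a gene can have several. These promoters therefore do not stand for single genes. Over the 12436 promoters of tested genes, ATTGG occurred in 38.7% and AACNGATG in 1.79%. The pair at that spacing occurred in 4 of these and in 5 of all 32851 promoters of the table. Among the carriers of the pair, H2-Eb1 and H2-DMb2 rose and H2-DMb1 did not pass, and H2-Eb2 stayed between 4.32 and 20.7 normalized counts in all libraries (adjusted p = 0.879).

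Ciita, H2-Aa, H2-Ab1, H2-Eb1 and H2-Ob fell outside the naming rule and were chosen after their values were seen. Ciita itself stood at 536, 543 and 802 normalized counts in the control libraries and at 1171, 1071 and 1274 in the tet-LIN28B libraries (log2 fold change 0.92 ± 0.16 SE, adjusted p = 0.00419). The 3 subunits of the factor that recruits it to the X box did not pass, with log2 fold changes of -0.06 for Rfx5 (adjusted p = 0.718), 0.17 for Rfxap (adjusted p = 0.283) and -0.08 for Rfxank (adjusted p = 0.504). Among the classical chains, H2-Aa was at 2339.6, 2452 and 3376 in controls and at 4207, 5319 and 5751 in tet-LIN28B cells (log2 fold change 0.91 ± 0.15 SE, adjusted p = 0.00351). H2-Ab1 read 6563, 8178 and 10728 in the 3 control libraries against 14086, 15464 and 16956 in the 3 tet-LIN28B libraries (log2 fold change 0.89 ± 0.15 SE, adjusted p = 0.00382). H2-Eb1 had normalized counts of 1107, 1348 and 1815 without and 2322, 2938 and 3427 with the transgene (log2 fold change 1.04 ± 0.18 SE, adjusted p = 0.0049). In these 4 genes control replicate 3 was the highest control and lay below every tet-LIN28B library, a separation found in nearly all called genes. Cd74, which encodes the invariant chain, stood at 34277, 37181 and 48842 normalized counts in the control libraries and at 95907, 98363 and 98171 in the tet-LIN28B libraries (log2 fold change 1.30 ± 0.11 SE, adjusted p = 0.000128), and the tet-LIN28B libraries were within a narrow band above all controls.

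The genes of peptide exchange in the lysosome behaved unequally. H2-DMa and H2-DMb2 encode chains of the exchange factor H2-DM, and H2-Oa and H2-Ob those of its inhibitor H2-DO. H2-DMb2 was at 913, 1169.9 and 1264 in controls and at 2779, 3181 and 2814 in tet-LIN28B cells (log2 fold change 1.40 ± 0.12 SE, adjusted p = 0.000135), and H2-DMa rose by 0.99 on the log2 scale. H2-Oa read 737, 806 and 890.5 in the 3 control libraries against 1466, 1355 and 1483 in the 3 tet-LIN28B libraries (log2 fold change 0.83 ± 0.10 SE, adjusted p = 0.000774), and H2-Ob rose by 0.48. H2-DMb1 was at 757, 718 and 923 in controls and 903, 921 and 940.4 in tet-LIN28B cells, and the genotypes overlapped (adjusted p = 0.243). The lysosomal thiol reductase gene Ifi30 (0.80) and Ctss (0.53), the protease that trims the invariant chain, rose as well. The ubiquitin ligases that take class II molecules off the surface moved in opposite directions. March1 stood at 115, 91.9 and 106 normalized counts in the control libraries and at 805, 921 and 663 in the tet-LIN28B libraries (log2 fold change 2.91 ± 0.17 SE, adjusted p = 1.72e-05), among the largest increases of the comparison. March8 was at 98.6, 77.8 and 78.0 in controls and at 21.8, 1.04 and 21.7 in tet-LIN28B cells (log2 fold change -3.07 ± 0.80 SE, adjusted p = 0.0302), but its call was lost without control replicate 1 (adjusted p = 0.102), control replicate 2 (adjusted p = 0.0772) or control replicate 3 (adjusted p = 0.0798).

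**Figure D2:**
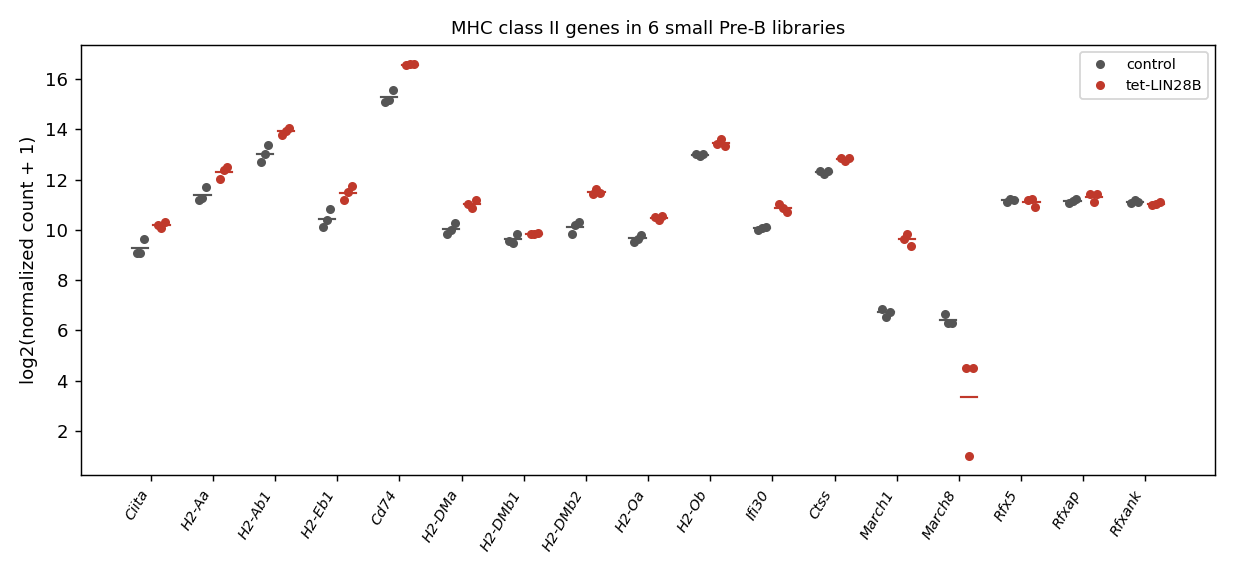
Normalized counts of 17 MHC class II genes per small Pre-B library on the scale log2(normalized count + 1). Grey points are the 3 controls, red points the 3 tet-LIN28B libraries, and bars their means. Ciita, the classical chains, Cd74 and March1 lie higher in every tet-LIN28B library than in any control, while the Rfx genes and H2-DMb1 overlap or do not pass, and March8 is lower.

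MHC class I genes, which present peptides of the cell's own proteins, rose in part. Of 24 tested, 8 rose and 2 fell (median 0.21, and 7 and 2 after centring on length). H2-T22 rose from 2613, 2675 and 2681 to 3521, 3378 and 3454 (log2 fold change 0.38 ± 0.06 SE, adjusted p = 0.00467). The immunoproteasome genes Psmb8 (0.37) and Psme1 (0.35) rose, as log2 fold changes. Of those that fell, Cd1d1, which presents lipids to NKT cells, was at 12153, 11861 and 12026 in controls and at 8056, 9579 and 9392 in tet-LIN28B cells (log2 fold change -0.42 ± 0.07 SE, adjusted p = 0.00513). Nlrc5, the class I counterpart of Ciita, had normalized counts of 2041, 1502 and 1905 without and 1370.0, 1028 and 1141 with the transgene (log2 fold change -0.62 ± 0.14 SE, adjusted p = 0.0143), but its call was lost without control replicate 1 (adjusted p = 0.0624) or control replicate 3 (adjusted p = 0.0568). In the fits that leave out a library 3 to 9 rose and 1 to 5 fell, the fewest rising without control replicate 1.

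Surface genes of immature and mature B cells rose more often than they fell. Of 46 tested, 17 rose and 5 fell, a share of 37% and 10.9%, and after centring on length 16 and 4, with 1 library left out 12 to 15 and 3 to 4. Cd86, a costimulatory ligand for T cells, stood at 282, 243 and 334 normalized counts in the control libraries and at 749.8, 616 and 648 in the tet-LIN28B libraries (log2 fold change 1.23 ± 0.15 SE, adjusted p = 0.000791). Icam1, an adhesion ligand for LFA-1, was at 1141, 1342 and 1447 in controls and at 2563, 2112 and 2578 in tet-LIN28B cells (log2 fold change 0.88 ± 0.11 SE, adjusted p = 0.00099). Tnfrsf13c, the receptor for the survival factor BAFF, read 7938, 8464 and 9579 in the 3 control libraries against 14355, 13513 and 15595 in the 3 tet-LIN28B libraries (log2 fold change 0.74 ± 0.08 SE, adjusted p = 0.000468). The genotypes did not overlap for any of these 3 genes, which held for 2102 of the 2107 called genes and 33.9% of all genes tested. Low-level genes of the group also rose, and Fcer2a, the low-affinity IgE receptor CD23, had normalized counts of 34.4, 33.5 and 31.9 without and 280.2, 215 and 266 with the transgene. Members that fell included Cd72, an inhibitory coreceptor, which was at 60784, 61040.1 and 62969.6 in controls and at 42871, 39574 and 42516 in tet-LIN28B cells (log2 fold change -0.57 ± 0.06 SE, adjusted p = 0.000315).

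Components of antigen receptor signalling rose in part. Of 40 genes of pre-BCR and BCR proximal signalling 11 rose and 2 fell (median 0.14, after centring on length 12 and 1, with 1 library left out 6 to 12 and 1 to 2, the total changing most without control replicate 1 or tet-LIN28B replicate 1). Bank1, a scaffold of B cell receptor signalling, stood at 2775, 2118 and 2377 normalized counts in the control libraries and at 4641, 4777 and 4052 in the tet-LIN28B libraries (log2 fold change 0.89 ± 0.10 SE, adjusted p = 0.000661). Cd79b, a signalling chain of the receptor, was at 102017, 106808 and 104200.0 in controls and at 146801, 140265 and 134025 in tet-LIN28B cells (log2 fold change 0.43 ± 0.06 SE, adjusted p = 0.00186), while its partner Cd79a had a log2 fold change of 0.15 (adjusted p = 0.108). The SRC family kinase gene Blk rose by 0.47 and the phosphatase gene Ptpn6, which encodes SHP-1, by 0.55 on the log2 scale. Of 9 immunoglobulin constant and J chain genes tested 2 rose and 1 fell. After centring on length the numbers were 0 and 1, and with 1 library left out 0 to 2 and 1. Iglc2, a lambda light chain constant gene, read 30485, 33789 and 22719.7 in the 3 control libraries against 14717, 11623 and 10437 in the 3 tet-LIN28B libraries (log2 fold change -1.24 ± 0.15 SE, adjusted p = 0.000791). Igkc, the kappa constant gene, had normalized counts of 61749.6, 68183 and 64665 without and 81686, 75047 and 82858 with the transgene (log2 fold change 0.30 ± 0.07 SE, adjusted p = 0.0139), but its call was lost without control replicate 1 (adjusted p = 0.067) or control replicate 3 (adjusted p = 0.0619), and it did not pass after centring on length (adjusted p = 0.0924). The lambda constant segments are near copies of one another, and how the counting divided their reads is uncertain.

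Precursor genes were split. Of 18 surface genes of precursor stages 4 rose and 4 fell (after centring on length 4 and 4, with 1 library left out 2 to 3 and 4). Enpep, the aminopeptidase BP-1 of pre-B cells, stood at 233, 574 and 628 normalized counts in the control libraries and at 134, 68.4 and 63.4 in the tet-LIN28B libraries (log2 fold change -2.38 ± 0.39 SE, adjusted p = 0.00369), with control replicate 1 the lowest control. Bst1, a bone marrow stromal antigen with NAD hydrolase activity, rose from 3276, 3326 and 3189 to 5892, 4717 and 4849 (log2 fold change 0.65 ± 0.09 SE, adjusted p = 0.00138), whereas its relative Cd38 fell by 0.80 on the log2 scale. In IL-7 receptor and STAT5 signalling, the growth factor pathway of pro-B and large pre-B cells, 2 rose and 5 fell of 23 (after centring on length 2 and 4, with 1 library left out 1 to 2 and 3 to 5, the total changing most without control replicate 1). Il2ra, a STAT5 target that marks pre-B cells, was at 10907, 10209.9 and 10554 in controls and at 4504, 5252 and 4713 in tet-LIN28B cells (log2 fold change -1.13 ± 0.07 SE, adjusted p = 2.85e-05). Socs2, a feedback inhibitor induced by STAT5, read 289, 303 and 232 in the 3 control libraries against 118, 90.2 and 155 in the 3 tet-LIN28B libraries (log2 fold change -1.20 ± 0.22 SE, adjusted p = 0.00718). Il2rg, the shared gamma chain, rose by 0.35 (adjusted p = 0.00712), opposite in direction to Il7r, which had normalized counts of 17323, 16831 and 16604 without and 9726, 12122 and 9209.7 with the transgene.

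Transcription factors of the B lineage moved in both directions, with 10 of 60 higher and 12 lower (after centring on length 11 and 8, with 1 library left out 7 to 11 and 7 to 12, the total changing most without control replicates 1 or 2). Id3, which blocks the DNA binding of E proteins, stood at 2684, 2687 and 2814 normalized counts in the control libraries and at 8908, 7567 and 7946 in the tet-LIN28B libraries (log2 fold change 1.57 ± 0.07 SE, adjusted p = 6.69e-06). Pou2f2, which encodes the octamer factor OCT2, was at 1989.7, 2176 and 1939 in controls and at 4159, 3649 and 3794 in tet-LIN28B cells (log2 fold change 0.93 ± 0.08 SE, adjusted p = 0.000136). Bcl11a, a zinc finger repressor required early in B cell development, read 1762, 1912 and 1891 in the 3 control libraries against 3978, 3200.4 and 3358 in the 3 tet-LIN28B libraries (log2 fold change 0.92 ± 0.09 SE, adjusted p = 0.000276). Spi1, which encodes PU.1, rose by 0.51 (adjusted p = 0.00088). The controls of these 4 genes lay close together and below every tet-LIN28B library, a separation found in nearly all called genes. Of those that fell, Bach2, a repressor that holds back plasma cell fate, had normalized counts of 41093, 42057 and 41894 without and 22190.1, 26768 and 28161 with the transgene (log2 fold change -0.70 ± 0.08 SE, adjusted p = 0.00072). Zbtb20, a BTB zinc finger factor, fell from 2941, 3265 and 3441 to 2056, 2108 and 2054 (log2 fold change -0.63 ± 0.08 SE, adjusted p = 0.000857). Pax5, which commits cells to the B lineage, did not pass and had a log2 fold change of -0.10 (adjusted p = 0.667).

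None of the 12 Kruppel-like factor genes passed, although their median log2 fold change was -0.30, while after centring on length 1 fell and with 1 library left out 0 to 2 fell. Klf2, a quiescence factor of lymphocytes, was at 17254, 21200.5 and 18724 in controls and 14372, 13942 and 17559.5 in tet-LIN28B cells (adjusted p = 0.0582), and Klf4 at 90.3, 171 and 118 and 33.8, 38.4 and 92.3 (adjusted p = 0.0546). In both genes 1 tet-LIN28B library reached into the range of the controls. Of the 29 AP-1, EGR and other immediate early genes 2 rose and 1 fell, none of which kept its call in all fits that leave out a library. Over all genes tested, 14.4% were called in either direction.

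**Figure D3:**
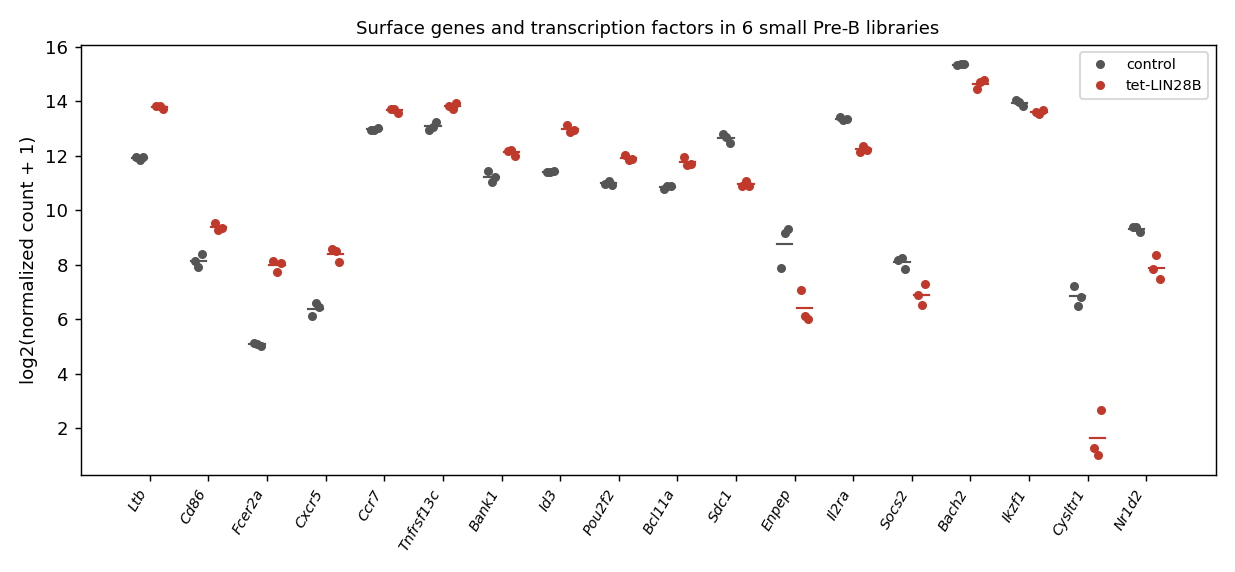
Normalized counts of 18 surface, signalling and transcription factor genes per library on the scale log2(normalized count + 1). Grey points are the 3 controls, red points the 3 tet-LIN28B libraries, and bars their means. Genes from Ltb to Bcl11a lie higher and genes from Sdc1 to Nr1d2 lower in every tet-LIN28B library than in any control.

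Several receptors that guide B cells to lymphoid organs rose. Of 28 chemoattractant receptor genes tested, 8 rose and 3 fell (after centring on length 9 and 3, with 1 library left out 7 to 9 and 0 to 3, the total changing most without control replicates 1 or 2). Cxcr5, the receptor that draws B cells into follicles, stood at 67.9, 95.1 and 87.4 normalized counts in the control libraries and at 381, 366 and 273 in the tet-LIN28B libraries (log2 fold change 2.01 ± 0.21 SE, adjusted p = 0.000351), a ratio of means of 4.07. Ccr7, the receptor for lymph node entry, was at 7871, 7915 and 8375 in controls and at 13314, 13580.3 and 12024 in tet-LIN28B cells (log2 fold change 0.69 ± 0.07 SE, adjusted p = 0.000226). Gpr132, a lipid receptor, read 159, 173 and 222 in the 3 control libraries against 366, 382 and 424 in the 3 tet-LIN28B libraries (log2 fold change 1.09 ± 0.17 SE, adjusted p = 0.00271). The cannabinoid receptor gene Cnr2 rose by 0.40 on the log2 scale. Cxcr4, which holds precursors in the marrow, did not pass and was at 3002, 3152 and 3016 in controls and 2492, 2761 and 2647 in tet-LIN28B cells (adjusted p = 0.0702). The leukotriene receptor gene Cysltr1, which passed the filter on low values through the controls alone and counts among those that fell, had normalized counts of 149, 89.7 and 112 without and 1.41, 1.04 and 5.43 with the transgene.

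Of 32 adhesion genes 10 rose and 4 fell (after centring on length 12 and 2, with 1 library left out 5 to 8 and 2 to 4, the total changing most without control replicates 1 or 3 or tet-LIN28B replicates 1 or 3). Itgal, the alpha chain of LFA-1, stood at 445, 448 and 449.9 normalized counts in the control libraries and at 872, 1177 and 931 in the tet-LIN28B libraries (log2 fold change 1.14 ± 0.13 SE, adjusted p = 0.000488). Sema4d, a semaphorin on lymphocytes, was at 1232, 1454 and 1449 in controls and at 2506, 2653 and 2645 in tet-LIN28B cells (log2 fold change 0.92 ± 0.09 SE, adjusted p = 0.000215). Fermt3, the kindlin that activates integrins in blood cells, rose by 0.38. Itga9 and Itga3, which encode integrin alpha chains, fell. Itga9 read 2499, 2244 and 2359.5 in the 3 control libraries against 1044, 1488 and 1616 in the 3 tet-LIN28B libraries (log2 fold change -0.80 ± 0.14 SE, adjusted p = 0.00584), and Itga3 had a log2 fold change of -1.51.

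Several actin genes rose. Of 53 genes of actin and its regulators 15 rose and 4 fell (after centring on length 15 and 2, with 1 library left out 8 to 17 and 1 to 5, the total changing most without control replicates 1, 2 or 3 or tet-LIN28B replicate 1). Coro1a, a coronin of the lymphocyte cortex, stood at 51512, 54174 and 55309.6 normalized counts in the control libraries and at 85304, 79672 and 82033 in the tet-LIN28B libraries (log2 fold change 0.62 ± 0.06 SE, adjusted p = 0.000218). Pfn1, the actin monomer carrier profilin, was at 36592, 39588 and 39306 in controls and at 66215, 57438 and 56928 in tet-LIN28B cells (log2 fold change 0.64 ± 0.07 SE, adjusted p = 0.000507). Tmsb4x, the monomer buffer thymosin beta 4, rose by 0.49, the severing factor gene Cfl1 by 0.38 and the membrane linker gene Ezr by 0.47 on the log2 scale.

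Among the largest increases were genes outside these groups. Cpne5, a calcium-dependent membrane binding gene, was at 98.6, 102 and 114 in controls and at 465, 521 and 573 in tet-LIN28B cells (log2 fold change 2.30 ± 0.16 SE, adjusted p = 4.44e-05). Stac2, an adaptor of voltage-gated calcium channels, read 11.2, 7.57 and 14.1 in the 3 control libraries against 177, 121 and 98.7 in the 3 tet-LIN28B libraries (log2 fold change 3.48 ± 0.37 SE, adjusted p = 0.000365). Lst1, a leukocyte gene of the MHC class III region, had normalized counts of 15.8, 17.3 and 25.4 without and 103, 117 and 113 with the transgene (log2 fold change 2.48 ± 0.30 SE, adjusted p = 0.000795). All 3 tet-LIN28B libraries lay several-fold above each control in these 3 genes, which the rule names only where the genotypes do not overlap. Pld4, an exonuclease of endosomal nucleic acids, was at a higher level and stood at 3778, 3770.2 and 4048 normalized counts in the control libraries and at 10307, 8719.6 and 9954 in the tet-LIN28B libraries (log2 fold change 1.32 ± 0.08 SE, adjusted p = 1.72e-05). Prg3, an eosinophil proteoglycan gene, was at 1035, 871 and 1033 in controls and at 3009, 2558 and 3470.3 in tet-LIN28B cells (log2 fold change 1.61 ± 0.12 SE, adjusted p = 6.71e-05). Ltb, which encodes lymphotoxin beta and had the smallest adjusted p of the genes named, read 3935, 3679 and 3964 in the 3 control libraries against 14605, 14627 and 13305 in the 3 tet-LIN28B libraries (log2 fold change 1.88 ± 0.07 SE, adjusted p = 6.57e-07). Fkbp11, a secretory pathway isomerase, had normalized counts of 7.44, 40.0 and 5.64 without and 144, 92.3 and 102 with the transgene (log2 fold change 3.08 ± 0.61 SE, adjusted p = 0.00905), with control replicate 2 above the other controls. Cacna1i, a calcium channel gene, was at 5.58, 41.1 and 21.6 in controls and at 92.2, 60.1 and 99.6 in tet-LIN28B cells (log2 fold change 2.17 ± 0.59 SE, adjusted p = 0.0356), but its call was lost without control replicate 1 (adjusted p = 0.0623), control replicate 3 (adjusted p = 0.07), tet-LIN28B replicate 1 (adjusted p = 0.102) or tet-LIN28B replicate 3 (adjusted p = 0.076). Ifit1bl1, an interferon-induced gene, rose by 2.22 on the log2 scale.

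Several of the largest decreases were in genes best known from other tissues. F5, which encodes coagulation factor V, stood at 2693, 2152 and 1965 normalized counts in the control libraries and at 107, 367 and 256 in the tet-LIN28B libraries (log2 fold change -3.37 ± 0.35 SE, adjusted p = 0.000351). Lipc, hepatic lipase, was at 527, 575 and 502 in controls and at 56.3, 99.6 and 94.1 in tet-LIN28B cells (log2 fold change -2.71 ± 0.22 SE, adjusted p = 0.000116). Dmrt3, a transcription factor of spinal interneurons, read 302, 408 and 289 in the 3 control libraries against 71.8, 61.2 and 33.5 in the 3 tet-LIN28B libraries (log2 fold change -2.62 ± 0.29 SE, adjusted p = 0.000477). Stac, a relative of Stac2 that moved the opposite way, had normalized counts of 347, 254 and 209 without and 40.8, 45.6 and 39.8 with the transgene (log2 fold change -2.62 ± 0.24 SE, adjusted p = 0.00018). Mag, a glycoprotein of myelin, was at 168, 159 and 164 in controls and at 19.0, 6.22 and 55.2 in tet-LIN28B cells (log2 fold change -3.04 ± 0.59 SE, adjusted p = 0.0085). In none of these 5 genes did a tet-LIN28B library reach the lowest control, which the rule that named them required. The sulfonylurea receptor gene Abcc8, the cytoskeletal linker gene Epb41l1 and the immunoglobulin superfamily gene Igsf3 also fell, with log2 fold changes of -3.33, -3.22 and -2.60. Lmo7 read 61.4, 61.6 and 62.9 in controls against 0, 12.4 and 3.62 in tet-LIN28B cells. Tmc5 had normalized counts of 54.9, 41.1 and 57.3 without and 26.8, 1.04 and 1.81 with the transgene (log2 fold change -3.25 ± 0.86 SE, adjusted p = 0.0312), but its call was lost without control replicate 1 (adjusted p = 0.1), control replicate 2 (adjusted p = 0.0722), control replicate 3 (adjusted p = 0.0946), tet-LIN28B replicate 2 (adjusted p = 0.0642) or tet-LIN28B replicate 3 (adjusted p = 0.0642).

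The decreases with the smallest adjusted p values included the following genes. Sdc1, the heparan sulfate proteoglycan CD138 of pre-B and plasma cells, stood at 7054, 6598 and 5679 normalized counts in the control libraries and at 1914, 2134 and 1917 in the tet-LIN28B libraries (log2 fold change -1.69 ± 0.09 SE, adjusted p = 1.5e-05). Arl5a, a small GTPase of the Golgi, was at 14453, 11312 and 11076 in controls and at 3675, 3542 and 3325 in tet-LIN28B cells (log2 fold change -1.80 ± 0.10 SE, adjusted p = 1.53e-05). Dclk2, a doublecortin-like kinase, read 709, 833 and 639 in the 3 control libraries against 144, 150.4 and 130.3 in the 3 tet-LIN28B libraries (log2 fold change -2.35 ± 0.15 SE, adjusted p = 2.91e-05). Trib1, a pseudokinase that directs protein degradation, had normalized counts of 1154, 1251 and 1212 without and 401, 460.5 and 383 with the transgene (log2 fold change -1.54 ± 0.11 SE, adjusted p = 5.13e-05). The LIM-only factor gene Lmo4, the endosomal gene Spg21 and the leucine-rich repeat gene Lrrn3 fell with log2 fold changes of -1.03, -0.96 and -1.67. In each of these 7 genes all tet-LIN28B libraries lay below all controls, which the rule that named them required.

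**Figure D4:**
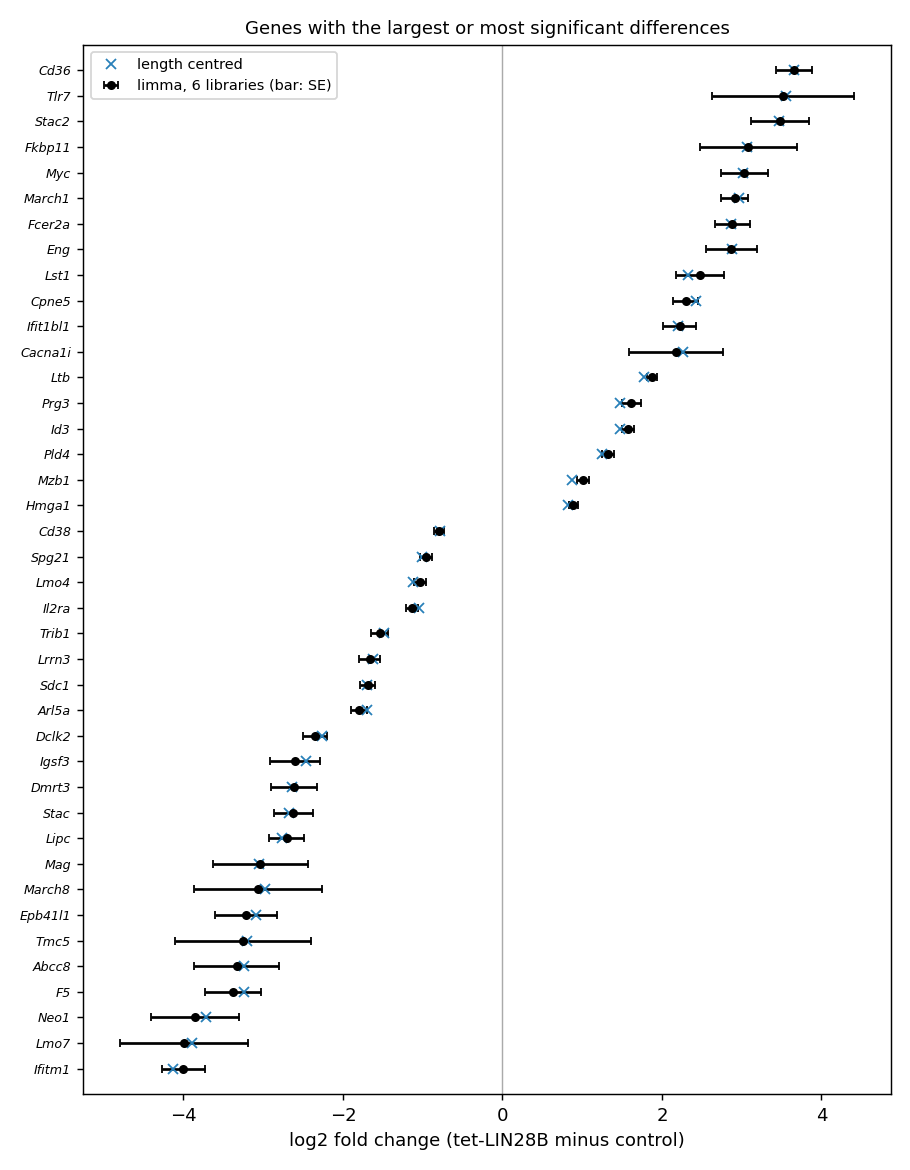
Log2 fold changes (tet-LIN28B minus control) of the named genes with the largest changes or the smallest adjusted p values in each direction, with bars for the SE of the limma fit (n = 3 and 3), and crosses for the value after centring on transcript length. After centring no value moved by more than 0.158, although 7 of 40 moved by more than their SE, and Ifitm1 is the lowest point and Cd36 the highest, at 3.65. Genes that passed the filter through 1 genotype alone are not drawn.

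In TGF-beta signalling receptor partners and mediators changed on both sides. Of 28 genes 4 rose and 3 fell (after centring on length 5 and 3, with 1 library left out 3 to 5 and 2 to 5). Eng, the coreceptor endoglin, stood at 10.2, 14.1 and 14.1 normalized counts in the control libraries and at 89.4, 112 and 96.8 in the tet-LIN28B libraries (log2 fold change 2.87 ± 0.32 SE, adjusted p = 0.000488). Smad3, which carries the signal to the nucleus, was at 1682, 1400.2 and 1427 in controls and at 2565, 2839 and 2089 in tet-LIN28B cells (log2 fold change 0.73 ± 0.12 SE, adjusted p = 0.00382). Smurf1, a ubiquitin ligase for SMAD proteins, read 1187, 1166 and 1131 in the 3 control libraries against 605, 795 and 697 in the 3 tet-LIN28B libraries (log2 fold change -0.74 ± 0.11 SE, adjusted p = 0.00257). Neo1, a receptor of the netrin and repulsive guidance family, fell to 21.1, 49.8 and 7.24 from 412, 315 and 213. Lrrc32, which encodes GARP, the surface anchor of latent TGF-beta, had normalized counts of 0, 0 and 1.88 without and 204, 72.6 and 91.4 with the transgene, and it passed the filter on low values through the tet-LIN28B libraries alone.

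Of 38 Notch and Wnt genes 3 rose and 7 fell, and 3 and 5 did so after centring on length. The excess of decreases varied with the library left out. The numbers higher and lower were 3 and 3, 2 and 3, and 3 and 4 when control replicates 1, 2 and 3 were left out in turn. They were 2 and 5, 5 and 6, and 2 and 8 without tet-LIN28B replicates 1, 2 and 3. Notch2, the receptor that directs marginal zone fate, stood at 632, 615 and 598 normalized counts in the control libraries and at 331, 389 and 413 in the tet-LIN28B libraries (log2 fold change -0.71 ± 0.12 SE, adjusted p = 0.00533). Rbpj, the DNA-binding partner of Notch, was at 1739, 1569 and 1608 in controls and at 1099.7, 1187 and 1158 in tet-LIN28B cells (log2 fold change -0.51 ± 0.08 SE, adjusted p = 0.00375). Tcf7, the Wnt effector TCF1, read 38.2, 47.6 and 33.8 in the 3 control libraries against 2.82, 6.22 and 5.43 in the 3 tet-LIN28B libraries, and it is among the decreases although it passed the filter on low values through the controls alone. Maml2, a Notch coactivator, rose by 0.70, and Lfng, which glycosylates Notch receptors, had normalized counts of 66.1, 57.3 and 63.9 without and 151, 256 and 117 with the transgene (log2 fold change 1.39 ± 0.29 SE, adjusted p = 0.0118). Notch2 and Rbpj were thus lower and Lfng and Maml2 higher, which are single members of the 38 and do not give a direction for the pathway.

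In the PI3K and AKT list 2 rose and 5 fell of 35 (after centring on length 4 and 3, with 1 library left out 0 to 3 and 2 to 6, the total changing most without control replicates 1, 2 or 3), where 14.4% of all genes tested were called in either direction. Inppl1, the inositol phosphatase SHIP2, stood at 593, 544 and 588 normalized counts in the control libraries and at 249.9, 237 and 262 in the tet-LIN28B libraries (log2 fold change -1.20 ± 0.12 SE, adjusted p = 0.000331). Rptor, the scaffold of the growth kinase complex mTORC1, was at 3886, 3222 and 4193 in controls and at 2543, 2841 and 2522 in tet-LIN28B cells (log2 fold change -0.51 ± 0.10 SE, adjusted p = 0.00919). Of 40 RAS and MAP kinase genes 7 rose and 2 fell (after centring on length 7 and 2, with 1 library left out 3 to 6 and 1 to 6, the total changing most without control replicate 2 or tet-LIN28B replicate 1). Rasgrp2, an activator of the GTPase RAP1, rose by 0.58 and Dusp10, a phosphatase of stress kinases, by 0.62, while Mapk11, which encodes p38 beta, had normalized counts of 512, 553 and 543 without and 334, 275 and 267 with the transgene (log2 fold change -0.88 ± 0.13 SE, adjusted p = 0.00257). Dgkh, a diacylglycerol kinase, stood at 133, 164 and 232 normalized counts in the control libraries and at 47.2, 39.4 and 19.0 in the tet-LIN28B libraries (log2 fold change -2.35 ± 0.36 SE, adjusted p = 0.00268). It was the only diacylglycerol kinase gene to pass of the 16 genes in its list. Of 30 NF-kB genes 2 rose and 0 fell (after centring on length 3 and 0, with 1 library left out 2 to 3 and 0 to 3, the total changing most without tet-LIN28B replicate 2), and of 31 calcium and NFAT genes 1 rose and 2 fell (after centring on length 3 and 1, with 1 library left out 0 to 3 and 0 to 2, the total changing most without control replicates 1 or 3 or tet-LIN28B replicate 3).

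Of 71 chromatin genes 8 rose and 11 fell (after centring on length 13 and 10, with 1 library left out 5 to 8 and 8 to 11). Hmga1, an architectural protein and let-7 target, stood at 15530.2, 15860.4 and 16451 normalized counts in the control libraries and at 29933, 27968 and 30726 in the tet-LIN28B libraries (log2 fold change 0.89 ± 0.06 SE, adjusted p = 4.38e-05). Hmgn1, a nucleosome binding protein, rose by 0.43. Ezh1, a Polycomb methyltransferase, was at 4819.7, 4057 and 4498 in controls and at 2781, 2858 and 2670.1 in tet-LIN28B cells (log2 fold change -0.68 ± 0.08 SE, adjusted p = 0.000598). Hdac9, a class II deacetylase, read 5317, 4298 and 4424 in the 3 control libraries against 2305, 2679 and 1919.8 in the 3 tet-LIN28B libraries (log2 fold change -1.03 ± 0.12 SE, adjusted p = 0.000727). Chd3, a remodelling subunit of the NuRD family, had normalized counts of 1044, 1489 and 1429 without and 535, 710.4 and 651 with the transgene (log2 fold change -1.05 ± 0.15 SE, adjusted p = 0.002). The tet-LIN28B libraries of these 3 enzymes all lay below the controls, a separation found in nearly all called genes. In the microRNA pathway 2 of 25 genes rose and 2 fell (after centring on length 3 and 1, with 1 library left out 1 to 2 and 1 to 2, the total changing most without control replicates 1, 2 or 3 or tet-LIN28B replicate 1), where 14.4% of all genes tested were called in either direction. Ago4, an Argonaute protein that holds the microRNA, stood at 1134, 907 and 776 normalized counts in the control libraries and at 261, 247 and 285 in the tet-LIN28B libraries (log2 fold change -1.81 ± 0.15 SE, adjusted p = 0.00012), whereas Ago1, Ago2 and Ago3 had log2 fold changes of -0.25, 0.27 and 0.07 and did not pass (adjusted p = 0.18, 0.133 and 0.818). Tarbp2, the partner of Dicer, rose by 0.59, and Dicer1 did not pass (adjusted p = 0.464). Zc3h12d, an RNase of immune mRNAs, was at 482, 452 and 495 in controls and at 791, 994 and 806 in tet-LIN28B cells (log2 fold change 0.85 ± 0.12 SE, adjusted p = 0.00181). Nr1d2, a repressor of the circadian clock, read 663, 675 and 587 in the 3 control libraries against 229.5, 325 and 176 in the 3 tet-LIN28B libraries (log2 fold change -1.44 ± 0.20 SE, adjusted p = 0.00174).

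Of 48 genes of amino acid transport, serine and one-carbon metabolism 16 rose and 2 fell, and 17 and 1 did so after centring on length. With 1 library left out the number rising ran from 8 without control replicate 1 to 19 without tet-LIN28B replicate 3. Shmt2, the mitochondrial serine hydroxymethyltransferase, stood at 2048, 1944 and 2068 normalized counts in the control libraries and at 3237, 3422 and 3004 in the tet-LIN28B libraries (log2 fold change 0.67 ± 0.08 SE, adjusted p = 0.00053). Got1, the cytosolic aspartate transaminase, was at 1297, 1353 and 1436 in controls and at 2042, 2093 and 2076 in tet-LIN28B cells (log2 fold change 0.60 ± 0.08 SE, adjusted p = 0.00104). The amino acid transporter genes Slc7a5 and Slc43a1 rose by 0.84 and 0.69 on the log2 scale. Of 40 nucleotide genes 9 rose and 0 fell (6 and 1 after centring on length). Pnp, which salvages purines, read 1807, 1800.2 and 1806 in the 3 control libraries against 3236, 3076 and 3041 in the 3 tet-LIN28B libraries (log2 fold change 0.79 ± 0.07 SE, adjusted p = 0.000147), and the phosphoribosyl pyrophosphate synthetase gene Prps2 rose by 0.89. With a library left out 2 to 6 nucleotide genes rose, the fewest without control replicate 1, control replicate 2 or control replicate 3.

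Of 51 fatty acid genes 1 rose and 7 fell, where 14.4% of all genes tested were called in either direction. After centring on length 1 rose and 6 fell. At most 4 fell with any 1 library left out, and the numbers higher and lower were 1 and 1, 1 and 2, and 2 and 3 when control replicates 1, 2 and 3 were left out in turn, 1 and 3 without tet-LIN28B replicate 1, and 1 and 4 without tet-LIN28B replicate 2 or 3. The increase was that of Cd36, a fatty acid uptake receptor, which was at 82.8, 112 and 172 in controls and 1573, 1544 and 1349 in tet-LIN28B cells (log2 fold change 3.65 ± 0.23 SE, adjusted p = 2.71e-05). Acsl4, which activates arachidonic acid, had normalized counts of 3453, 3491 and 3317 without and 2242, 2252 and 2263 with the transgene (log2 fold change -0.60 ± 0.07 SE, adjusted p = 0.000447). Scap, the escort of the sterol sensor SREBP, stood at 6148, 6575 and 6045 normalized counts in the control libraries and at 3068, 3693 and 3157 in the tet-LIN28B libraries (log2 fold change -0.92 ± 0.08 SE, adjusted p = 0.000159), whereas the genes of the sterol pathway itself gave 3 increases and 3 decreases among 36 (after centring on length 3 and 3, with 1 library left out 1 to 5 and 2 to 5, the total changing most without control replicate 1 or tet-LIN28B replicates 1 or 3). Mpc2, a subunit of the mitochondrial pyruvate carrier, was at 4349.7, 4288 and 3787 in controls and at 2606, 2484 and 2751 in tet-LIN28B cells (log2 fold change -0.66 ± 0.08 SE, adjusted p = 0.000704). Pdk2, a kinase that inhibits pyruvate dehydrogenase, fell by 0.45, and the glycolytic gene Eno1 rose by 0.39 on the log2 scale. Of 52 genes of the TCA cycle and mitochondrial import 6 rose and 3 fell (after centring on length 1 and 3, with 1 library left out 0 to 7 and 2 to 4, the total changing most without control replicates 1, 2 or 3 or tet-LIN28B replicate 1). For this list and the sterol list, the share called in either direction over all genes tested was 14.4%. In iron and redox metabolism Slc11a2, a divalent metal transporter, read 3035, 2888 and 2969 in the 3 control libraries against 1710.0, 1993 and 1521 in the 3 tet-LIN28B libraries (log2 fold change -0.78 ± 0.10 SE, adjusted p = 0.00099), Gclc, the first enzyme of glutathione synthesis, fell by 0.52, and Gpx1, a glutathione peroxidase, rose by 0.66 on the log2 scale.

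Proteasome genes rose, but fewer were called after centring on transcript length. Of 41 tested, 18 rose and 0 fell, with a median log2 fold change of 0.21 and a median longest transcript of 1883 bases, and after centring on length 8 and 0. Psmd8, a subunit of the regulatory particle, stood at 9490.5, 10043 and 10175 normalized counts in the control libraries and at 12512, 11829 and 12800.3 in the tet-LIN28B libraries (log2 fold change 0.32 ± 0.06 SE, adjusted p = 0.00741), and it kept its call after centring (adjusted p = 0.0138), whereas the core subunit gene Psmb5 did not (adjusted p = 0.0752). With a library left out 5 to 16 rose, the fewest without control replicate 1 or tet-LIN28B replicate 1. Of 66 genes of ER folding and secretion 19 rose and 3 fell, and 18 and 2 did so after centring. The number rising was 8 when control replicate 1 was left out, and 11 when any of control replicates 2 and 3 and tet-LIN28B replicate 1 was. It was 16 without tet-LIN28B replicate 2 and 20 without tet-LIN28B replicate 3. Mzb1, a chaperone of IgM in B cells, was at 8396, 9598 and 9089.6 in controls and at 19205, 17295 and 18007 in tet-LIN28B cells (log2 fold change 1.01 ± 0.07 SE, adjusted p = 4.44e-05). Calr, the lectin chaperone calreticulin, rose by 0.59 and Rpn1, a subunit of the glycosylation complex, by 0.47. Sec11c, a signal peptidase subunit, fell by 0.36 on the log2 scale. Ctsd, cathepsin D, read 4095, 4146 and 3900.0 in the 3 control libraries against 5631, 5526 and 5365 in the 3 tet-LIN28B libraries (log2 fold change 0.44 ± 0.06 SE, adjusted p = 0.00174), and Ctsz and Ctsa rose by 0.48 and 0.31, while Ulk2, a kinase that starts autophagy, had normalized counts of 2387, 2127 and 2348 without and 1756, 1639.6 and 1552 with the transgene (log2 fold change -0.47 ± 0.08 SE, adjusted p = 0.00543). Of the 60 genes of autophagy and the lysosome 8 rose and 5 fell (after centring on length 9 and 4, with 1 library left out 5 to 8 and 2 to 8, the total changing most without control replicates 1 or 3 or tet-LIN28B replicate 1).

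Most small Pre-B cells have left the cell cycle, and the count of mitosis genes called depended on single libraries. Of 70 mitosis genes 13 rose and 1 fell, with a median log2 fold change of 0.31, but 2 rose without control replicate 1 or tet-LIN28B replicate 1 and 24 without tet-LIN28B replicate 2, and 13 and 1 rose and fell after centring on length. Ccna2, a cyclin of S phase and mitosis, stood at 632, 833 and 804 normalized counts in the control libraries and at 1409, 1072 and 1393 in the tet-LIN28B libraries (log2 fold change 0.77 ± 0.14 SE, adjusted p = 0.00631). Mki67, a marker of cycling cells, was at 1248, 1211 and 1391 in controls and at 1900.1, 1465 and 2030.2 in tet-LIN28B cells (log2 fold change 0.48 ± 0.12 SE, adjusted p = 0.0287), but its call was lost without control replicate 1 (adjusted p = 0.0934), control replicate 2 (adjusted p = 0.0935), tet-LIN28B replicate 1 (adjusted p = 0.0952) or tet-LIN28B replicate 3 (adjusted p = 0.0673). Foxm1, which drives mitotic genes, went the other way and read 848, 843 and 669 in the 3 control libraries against 509.7, 486 and 503 in the 3 tet-LIN28B libraries (log2 fold change -0.65 ± 0.12 SE, adjusted p = 0.00749). DNA replication genes gave 3 increases and 2 decreases among 55 (after centring on length 3 and 2, with 1 library left out 1 to 4 and 0 to 4, the total changing most without control replicates 1, 2 or 3), and replication-dependent histones 0 and 1 among 50 (after centring on length 0 and 1, with 1 library left out 0 to 3 and 0 to 2, the total changing most without control replicates 1 or 3 or tet-LIN28B replicates 2 or 3). Over all genes tested, 14.4% were called in either direction. Cdkn2d, an inhibitor of G1 kinases, rose by 0.34 and Cdc34, a ubiquitin conjugating enzyme, by 1.04 on the log2 scale.

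Of 28 genes of caspases, IAPs and death receptors 3 rose and 3 fell (after centring on length 2 and 2, with 1 library left out 1 to 3 and 1 to 2, the total changing most without control replicates 1 or 3 or tet-LIN28B replicate 1), where 14.4% of all genes tested were called in either direction. Of 16 BCL2 family genes 1 rose and 2 fell (0 and 2 after centring on length), none of which kept its call in all fits that leave out a library, and Mcl1 was at 17071, 19875 and 19526 in controls and 22505, 19465 and 24098 in tet-LIN28B cells (adjusted p = 0.122). Casp9, the initiator caspase of the mitochondrial pathway, stood at 3642, 3539 and 3258 normalized counts in the control libraries and at 2475, 2354 and 2051 in the tet-LIN28B libraries (log2 fold change -0.60 ± 0.09 SE, adjusted p = 0.00194). Ripk3, a kinase of necroptosis, rose by 0.48, and Gadd45b, a stress gene, by 0.69 on the log2 scale. Of 37 p53 and damage response genes 1 rose and 2 fell (after centring on length 3 and 3, with 1 library left out 1 to 2 and 0 to 2, the total changing most without control replicates 1, 2 or 3 or tet-LIN28B replicates 1 or 2). In V(D)J recombination Polm, a polymerase that fills in light chain joins, was at 13932, 13857 and 14129 in controls and at 9468, 9919.5 and 9936 in tet-LIN28B cells (log2 fold change -0.52 ± 0.06 SE, adjusted p = 0.000419). Rag2 read 8339, 9005 and 8997 in the 3 control libraries against 7809, 7585 and 7299.9 in the 3 tet-LIN28B libraries (log2 fold change -0.21 ± 0.06 SE, adjusted p = 0.0449), but its call was lost without any one of the 6 libraries (adjusted p up to 0.149), and Rag1 did not pass (adjusted p = 0.114).

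Among GTPases and restriction factors of lymphocytes, 10 rose and 1 fell of 17 genes of the GIMAP, Schlafen and IFITM families (after centring on length 5 and 1, with 1 library left out 4 to 9 and 1, the total changing most without control replicates 1, 2 or 3 or tet-LIN28B replicates 1 or 2). The number rising was lowest, at 4, without tet-LIN28B replicate 2. Gimap6, a GTPase of lymphocyte survival, stood at 5293, 5742 and 6171 normalized counts in the control libraries and at 8052, 8798 and 7933 in the tet-LIN28B libraries (log2 fold change 0.53 ± 0.07 SE, adjusted p = 0.00181), and Gimap1 rose by 0.49. Slfn8, a Schlafen family member, was at 1905, 1387 and 1716 in controls and at 2974, 2559 and 2309 in tet-LIN28B cells (log2 fold change 0.65 ± 0.13 SE, adjusted p = 0.00859). Ifitm1, a membrane protein that restricts virus entry, read 239, 283 and 199 in the 3 control libraries against 14.8, 15.6 and 11.8 in the 3 tet-LIN28B libraries and fell (adjusted p = 4.44e-05). Of 28 Toll-like receptor genes 3 rose and 1 fell (after centring on length 3 and 1, with 1 library left out 1 to 3 and 0 to 1, the total changing most without control replicates 1 or 2 or tet-LIN28B replicate 1), where 14.4% of all genes tested were called in either direction. Cd180, a Toll-like receptor homologue of B cells, had normalized counts of 692, 577 and 612 without and 1012, 1006 and 1085 with the transgene (log2 fold change 0.72 ± 0.10 SE, adjusted p = 0.00197). In the TNF superfamily Tnfrsf18, the costimulatory receptor GITR, stood at 99.6, 81.1 and 102 normalized counts in the control libraries and at 298, 240.6 and 313 in the tet-LIN28B libraries (log2 fold change 1.58 ± 0.19 SE, adjusted p = 0.000813), and Tnfrsf19 fell from 4537, 3746 and 4620.4 to 2796, 2849.8 and 2709 (log2 fold change -0.62 ± 0.09 SE, adjusted p = 0.00177).

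Of 25 genes of B-1 and marginal zone B cells 9 rose and 2 fell, with a median log2 fold change of -0.01 (after centring on length 9 and 2, with 1 library left out 5 to 7 and 1 to 3, the total changing most without control replicate 1). Tm6sf1 stood at 419, 398 and 464 normalized counts in the control libraries and at 864, 919 and 957 in the tet-LIN28B libraries (log2 fold change 1.10 ± 0.11 SE, adjusted p = 0.000283), and Plac8, a lysosomal protein of lymphocytes, rose by 0.75. Some of the rising members, among them Mzb1 and Ifi30, also stand in other lists. Of 13 plasma cell markers 3 rose and 5 fell (after centring on length 2 and 4, with 1 library left out 2 to 3 and 1 to 5, the total changing most without control replicates 1, 2 or 3 or tet-LIN28B replicate 1), and their summed level was 60045 to 63668 in controls and 60051 to 68103 in tet-LIN28B cells. Prdm1, the plasma cell regulator BLIMP-1, was at 319, 327 and 302 in controls and at 154, 221 and 85.1 in tet-LIN28B cells (log2 fold change -1.14 ± 0.29 SE, adjusted p = 0.0275), but its call was lost without control replicate 1 (adjusted p = 0.0871), control replicate 2 (adjusted p = 0.0814), control replicate 3 (adjusted p = 0.0724) or tet-LIN28B replicate 1 (adjusted p = 0.0599). The 20 erythroid and megakaryocyte markers summed to 889.5 to 1031 in controls and 680.1 to 781 in tet-LIN28B cells, the 25 T and NK cell markers to 10066 to 10743 and 12175 to 12751, and the 17 stromal and endothelial markers to 11840.4 to 13254 and 10756 to 12319. Many of these genes are also used by B cells, such as Cd2 (9297 to 11537), and 14 T and NK cell, 14 granulocyte and monocyte, 11 erythroid, 6 dendritic and 10 stromal markers stayed under 10 in all libraries. The part of such cells in the results was not tested.

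**Figure D5:**
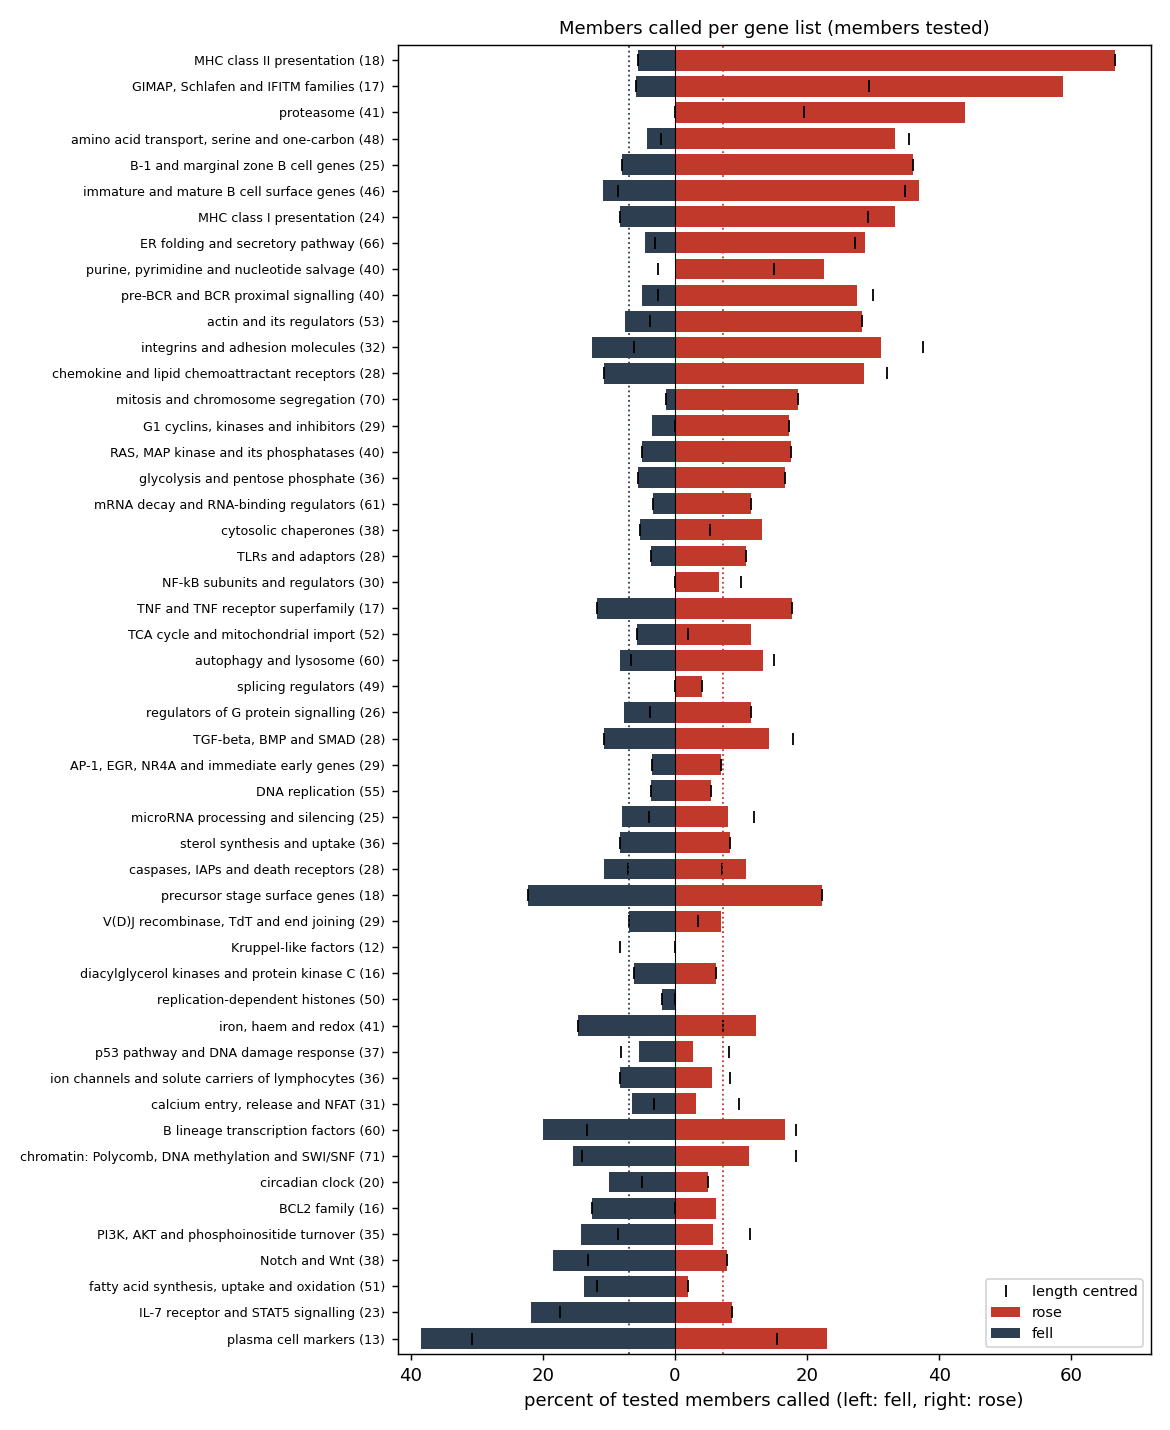
Share of tested members of each gene list that rose (right, red) or fell (left, dark) in tet-LIN28B small Pre-B cells, for lists with at least 10 tested members, whose number is in parentheses. Dotted lines mark the shares over all genes (7.34% and 7.03%) and ticks the shares after centring on transcript length. MHC class II genes stand at the top with 12 of 18 higher before and 12 after centring, while the count of proteasome genes goes from 18 to 8 of 41.

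The genotype difference was set against that of large Pre-B cells, the dividing stage just before. That stage had 3 control and 4 tet-LIN28B libraries, whose labels carry other identifiers. Of 12263 genes tested at both stages, 1 differed more in small Pre-B cells and 0 less by limma, 0.00815% of them, and 997 had an unadjusted p under 0.05. The gene was Myc, the growth regulator, which was at 37.2, 76.8 and 39.5 in controls and at 315, 441 and 469 in tet-LIN28B cells among small Pre-B cells and at 1240.2, 1155 and 1510.3 without and 1344, 1881, 1396 and 1294 with the transgene in the large ones, in a table normalized on its own. Its log2 fold change was 3.03 in small and 0.18 in large Pre-B cells, a difference of 2.85 ± 0.36 (SE, adjusted p = 0.0111). It missed the threshold without small Pre-B control replicate 3 (adjusted p = 0.0534), small Pre-B tet-LIN28B replicate 2 (adjusted p = 0.0652), small Pre-B tet-LIN28B replicate 3 (adjusted p = 0.0683), large Pre-B control replicate 3 (adjusted p = 0.0683), large Pre-B tet-LIN28B replicate 1 (adjusted p = 0.0523) or large Pre-B tet-LIN28B replicate 4 (adjusted p = 0.0565). Cd74 had log2 fold changes of 1.30 in small and 0.64 in large Pre-B cells (adjusted p of the difference = 0.635). For Ltb they were 1.88 in small and 1.74 in large Pre-B cells (adjusted p of the difference = 0.922). For Id3 they were 1.57 in small and 0.65 in large Pre-B cells (adjusted p of the difference = 0.188). For Sdc1 they were -1.69 in small and -0.24 in large Pre-B cells (adjusted p of the difference = 0.188). None of these 4 differences passed, which does not show that the stages act alike. Of the 1012 genes that rose in small Pre-B cells and were tested at both stages, 629 had log2 fold changes above 0 in large Pre-B cells, where 53.3% of all genes were, and of 950 that fell 550 were negative.

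Changed genes were spread over the genome. The share of tested genes that were called ranged from 12.8% on chromosome 12 to 20.4% on chromosome 15, and was 15.8% over the 12976 genes with coordinates. Within 5 Mb of Col1a1, where the transgene lies, 15 of 98 genes rose and 7 fell, together 22.4%, a share that was 18.4% after centring on length and 14.3% without control replicate 1. Within 20 Mb it was 15.4%. The calls within 5 Mb included Stac2 (chr11:98036623-98053462), Ccr7 (chr11:99144199-99155077) and Itga3 (chr11:95044475-95076844), with log2 fold changes of 3.48, 0.69 and -1.51. In the promoters of tested genes, 250 bases before to 50 after the start, the sequence GAAA, any 2 bases, GAAA on either strand was held by 5.73% of those whose gene rose, 2.17% of those whose gene fell and 3.1% of all. CACGTG was held by 8.7%, 7.74% and 10%, GGGA, any 4 bases, CC by 28.5%, 28.9% and 25.8%, and ATTTGCAT by 1.19%, 1.51% and 1.42%. A match is a description of letters and not a bound site.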

How the data were processed

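Poly-A RNA was made into libraries with SMART-Seq v4 and Nextera XT. Per the submitters' processing notes the authors used STAR 2.7.1, mm10, RSEM 1.28 and DESeq2, while the annotation was not given in the sources used here. Each deposited signal value is a normalized count that the authors scaled with DESeq2 size factors, each stage on its own. Their deposited test tables and the large Pro-B table were not used. Values were whole multiples of 1 read within 0.1 read (99.9994% in small Pre-B), which gave the library totals. Without molecular identifiers, PCR copies count as reads, so floors cover counting error only. Of 2157 symbols altered by R, 1944 were restored.

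Genotypes were compared with limma 3.58.1 (R 4.3.3, trend) on log2(normalized count + 1), a scale that understates changes of low genes, and 2-sided p-values were adjusted over all genes. Alternatives were another pseudocount (5), no filter, other scalings, a replicate block, edgeR 4.0.16 and DESeq2 1.42.0 on the recovered reads, each library left out and, chosen after seeing the data, centring on transcript length (GENCODE vM21, 99.5% of genes matched) and the fit without control replicate 1 and tet-LIN28B replicate 3. The fit was tested on simulated counts. The gene lists and members were chosen with earlier results of these data known. Genes were named by rule: the panel of checks, up to 15 largest called changes and 10 smallest adjusted p values in each direction among genes without overlap and with a mean of at least 50 in 1 genotype, up to 6 called members per list with the smallest adjusted p, members that did not pass where a sentence needs them, and called stage differences, with predicted genes, pseudogenes and variable segments left out of the rankings. Some genes that met the rule are not reported here. Other genes named are marked as such, are marker or sex-linked checks, or did not pass. Coordinates and promoters are those of RefSeq for GRCm38.p6, the build of mm10, and 9770 of 14664 tested genes had a promoter. Overlapping or near-identical genes may share reads.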

Additional observations from a re-analysis of the deposited data

Results flagged for a closer look

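The genotype difference of Myc differed between the stages by a test of the difference itself, being larger in small than in large Pre-B cells by 2.85 on the log2 scale (limma interaction, adjusted p = 0.0111). All 3 tet-LIN28B small Pre-B libraries lay above all controls of that stage, a separation found in nearly all genes called there. The difference ranged from 2.67 to 3.18 over the 18 alternatives and missed the threshold in 7 of them, with an adjusted p of up to 0.204.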

How the results depend on the processing

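The number of genes called, 2107, was 2158 with a pseudocount of 5, 1807 without a filter, 2056, 2044 and 2046 after rescaling to the same total, quantile normalization and TMM, 2018 by edgeR, 2674 by DESeq2 and 1808 after centring on length. It was 1024 to 1957 with 1 library left out and 1356 without both control replicate 1 and tet-LIN28B replicate 3. The number of listed genes called, 418 of 1776, was 217 to 407 with 1 library left out and 378 after centring on length. The stage difference called 1 gene, 2 with a pseudocount of 5 (March1 besides Myc) and 0 to 9 with 1 library left out. The share called within 5 Mb of Col1a1 was 14.3% to 22.4% with 1 library left out. Of 277 called genes named by the rule and considered here, 247 kept their call after centring on length and 169 in each fit without 1 library.

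The replicate numbers are labels only. Same-numbered libraries did not deviate together (r = 0.0167, -0.112 and -0.00429), and with a replicate block 1758 genes, 362 listed genes and 0 stage differences were called, where the interaction of Myc had an adjusted p of 0.204. 5 genes that did not pass changed sign in some fits. The log2 fold change of Cd79a was -0.0783 after quantile normalization. The log2 fold change of Igll1 was -0.0730 to 0.447 with 1 library left out, -0.262 without control replicate 1 and tet-LIN28B replicate 3. The log2 fold change of H2-Eb2 was -0.372 to 0.640 with 1 library left out, -0.0510 by edgeR, -0.0412 by DESeq2. The log2 fold change of Rfx5 was -0.119 to 0.0408 with 1 library left out, 0.0264 after centring on length, 0.0168 without control replicate 1 and tet-LIN28B replicate 3. The log2 fold change of Ago3 was -0.0555 to 0.226 with 1 library left out, -0.0993 without control replicate 1 and tet-LIN28B replicate 3. The cause was not tested. A library left out leaves 2 in its genotype.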
